A study of Mus musculus with 9 samples.

Results

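Transcripts of 10 cholinergic genes were compared between the brains of young and old mice. The genes cover the synthesis of acetylcholine (Chat), the uptake of its precursor choline (Slc5a7), its loading into synaptic vesicles (Slc18a3), its breakdown (Ache and Bche), the muscarinic receptors Chrm1, Chrm2 and Chrm3, and the nicotinic receptor subunits Chrna4 and Chrnb2. They were chosen by their role, with earlier results of these data known, as 10 of the 49315 genes in the count table. All 10 were among the 18492 genes that passed the filter on low counts and were tested. PolyA-selected RNA from whole brains of wild-type male C57BL/6J mice was sequenced, with 1 brain per library, and the labels name no treatment. The 5 young mice were 3 months old by the sample labels (3 or 4 months in the description of the study), and the 4 old mice were 33 months old. The old mice are named here by their replicate numbers 1, 3, 4 and 5. Between 14229259 and 21150439 reads were counted on genes per library.

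Acetylcholine is made by choline acetyltransferase from choline and acetyl-CoA, and the choline is recovered from the synaptic cleft by a high-affinity transporter after acetylcholinesterase has split the transmitter. Cholinergic neurons of the brain lie in the basal forebrain, the striatum, the medial habenula, nuclei of the upper brainstem and the motor nuclei of the brainstem. Muscarinic receptors are coupled to G proteins, whereas nicotinic receptors are ion channels built of several subunits, of which the combination of alpha4 and beta2 is the most common in brain. Chat, Slc5a7 and Slc18a3 are transcribed by cholinergic neurons themselves, whereas Ache and the receptors are also transcribed by cells that receive the transmitter.

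Chat and Slc18a3 form a single locus on mouse chromosome 14. On GRCm38, Chat lay at 14:32408203-32465989 on the minus strand, and Slc18a3 at 14:32462438-32464850 on the same strand, inside an intron of Chat. No exonic base was shared between them, so that reads counted on exons could be told apart. Promoter sequences, from 250 bases before to 50 bases after each annotated start (RefSeq, GRCm38.p6), were found for 9 of the 10 genes and not for Chrm1. The starts of Chat and Slc18a3 lay 1059 bases apart. The promoters of the 3 genes that mark the cholinergic neuron and of Ache, which carried the largest called change, are shown 5′ to 3′ on the strand of the gene, with matches to the GC box (GGGCGG, on either strand) or the TATA box (TATAAA, on either strand) in capitals.
Chat, chr14:32465860-32466159, minus strand: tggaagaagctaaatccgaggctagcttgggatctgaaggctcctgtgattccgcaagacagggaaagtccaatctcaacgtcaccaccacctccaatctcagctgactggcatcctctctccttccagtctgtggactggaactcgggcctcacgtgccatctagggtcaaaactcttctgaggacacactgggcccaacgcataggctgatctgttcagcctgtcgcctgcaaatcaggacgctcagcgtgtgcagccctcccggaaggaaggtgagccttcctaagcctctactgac
Slc18a3, chr14:32464801-32465100, minus strand: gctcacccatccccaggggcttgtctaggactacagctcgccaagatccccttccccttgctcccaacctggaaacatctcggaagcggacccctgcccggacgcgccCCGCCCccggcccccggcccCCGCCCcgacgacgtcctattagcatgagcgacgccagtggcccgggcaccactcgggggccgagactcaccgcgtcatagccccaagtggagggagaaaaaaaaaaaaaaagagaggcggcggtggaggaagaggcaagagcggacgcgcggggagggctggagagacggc
Slc5a7, chr17:54298985-54299284, minus strand: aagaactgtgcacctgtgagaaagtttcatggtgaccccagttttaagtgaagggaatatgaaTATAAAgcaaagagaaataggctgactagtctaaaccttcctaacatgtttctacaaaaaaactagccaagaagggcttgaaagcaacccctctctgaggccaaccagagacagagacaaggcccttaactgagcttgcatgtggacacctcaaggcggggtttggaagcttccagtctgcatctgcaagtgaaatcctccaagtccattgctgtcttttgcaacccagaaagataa
Ache, chr5:137288004-137288303, plus strand: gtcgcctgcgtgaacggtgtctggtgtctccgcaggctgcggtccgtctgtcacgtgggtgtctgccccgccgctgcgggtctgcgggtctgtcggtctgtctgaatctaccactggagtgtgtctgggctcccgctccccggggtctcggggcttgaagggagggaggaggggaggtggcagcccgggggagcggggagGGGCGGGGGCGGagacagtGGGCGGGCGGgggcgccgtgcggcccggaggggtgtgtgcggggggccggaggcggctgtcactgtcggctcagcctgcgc

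The neighbouring starts of Chat and Slc18a3 differed in base composition. The Slc18a3 promoter held 27 CpG dinucleotides at a GC content of 67% and 2 GC boxes, whereas that of Chat held 10 at 55.7% and no GC box. Over all 32851 promoters the median was 7 CpG dinucleotides and a GC content of 52.7%. The Ache promoter held 30 CpG dinucleotides at 74%. The Slc5a7 promoter, with 1 CpG dinucleotide at 44.7%, was the only one of the 9 with the TATA box letters, which 13.6% of all promoters held. The GC box letters stood in the promoters of Ache, Bche, Chrm2, Chrna4, Chrnb2 and Slc18a3 (6 of 9, against 35.7% of all promoters). The letters TTCAGCACC and GGACAGC (the left and right parts of the RE1 element), TAATTA (a homeodomain core) and GCGTGGGCG (an EGR site), searched on both strands, stood in none of the 9 windows and in 0.371%, 6.56%, 5.29% and 0.612% of all promoters. A match is a run of letters and not a measured binding site.

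Levels of different genes were compared as TPM, which the authors deposited and which divide the count by gene length. The order was the same in outline in every library. Ache had the highest mean over the 9 libraries with 55.1 TPM, followed by Chrm1 with 39.8 TPM. Chrm3 (22.1), Chrna4 (21.3) and Chrnb2 (21.1 TPM) lay close together, and Chrm2 followed with 12.8 TPM. The 3 genes of the cholinergic neuron were lower, with 6.79 for Slc5a7, 6.01 for Slc18a3 and 5.35 TPM for Chat. Bche was the lowest with 2.41 TPM.

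Some neighbours in this order could not be separated. Ache exceeded Chrm1 in 8 of 9 libraries, Chrm3 exceeded Chrna4 in 7, Chrna4 exceeded Chrnb2 in 5, Slc5a7 exceeded Slc18a3 in 7 and Slc18a3 exceeded Chat in 7. Chrm1 above Chrm3, Chrnb2 above Chrm2, Chrm2 above Slc5a7 and Chat above Bche held in all 9. In each library 4 nuclear genes of the highest mean TPM together took from 12.1% of the TPM (young mouse 3) to 47.7% (old mouse 3), which scales all other genes in that library. Changes with age were therefore tested on counts, and levels between the ages are given as CPM, the share of a library's counts, with TMM scaling.

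**Figure D1:**
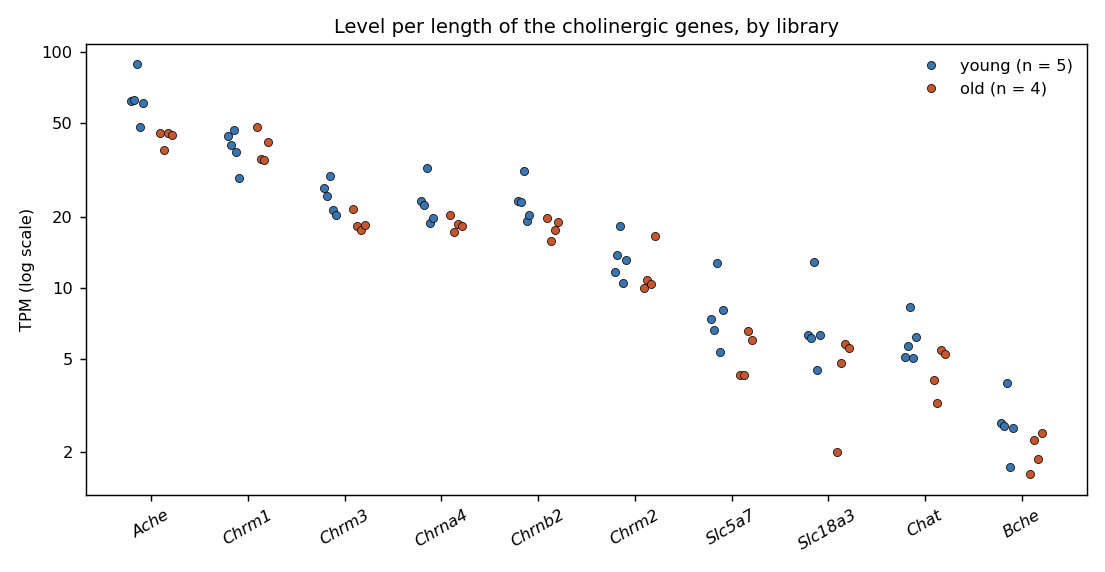
TPM on a log scale of the 10 cholinergic genes in each library, ordered by the mean over all 9 libraries, with young mice (n = 5) in blue and old mice (n = 4) in orange. Ache and Chrm1 are at the top, the genes of the cholinergic neuron lie between 2.01 and 12.8 TPM, and young mouse 3 gives the highest young point for all 10 genes.

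Of the 10 genes, 3 had a lower transcript level in old brain and none a higher one (edgeR's quasi-likelihood test, Benjamini-Hochberg adjusted p under 0.05 over all genes tested). Those that fell were Ache, the esterase that ends the cholinergic signal, the nicotinic subunit Chrnb2 and the muscarinic receptor Chrm3. Over all genes tested, 11% were called, 4.89% lower and 6.09% higher. None of the 10 also passed the fold threshold of 0.58 on the log2 scale, which 2.5% of all genes passed together with the adjusted p. At an unadjusted p under 0.05, 4 of the 10 were lower and 0 higher, against 12.3% of all genes lower and 25.5% in either direction, and DESeq2 also called 3 lower and 0 higher. The log2 fold change lay below 0 for 8 of the 10, against 50% of all genes, and its median was -0.20, against -9.2e-05 over all genes.

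The CPM of 3 of the 10 (Ache, Chrna4 and Chrnb2) did not overlap between the ages and were lower in all old mice, against 6.08% of all genes (12.6% in either direction). The summed CPM of the 10 genes lay between 427.8 and 448.2 in the young and between 394.2 and 406.8 in the old mice. Ache, Chrm1 and Chrnb2 supply most of this sum. In whole tissue, fewer cells that express a gene and less RNA of it per cell cannot be told apart.

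**Figure D2:**
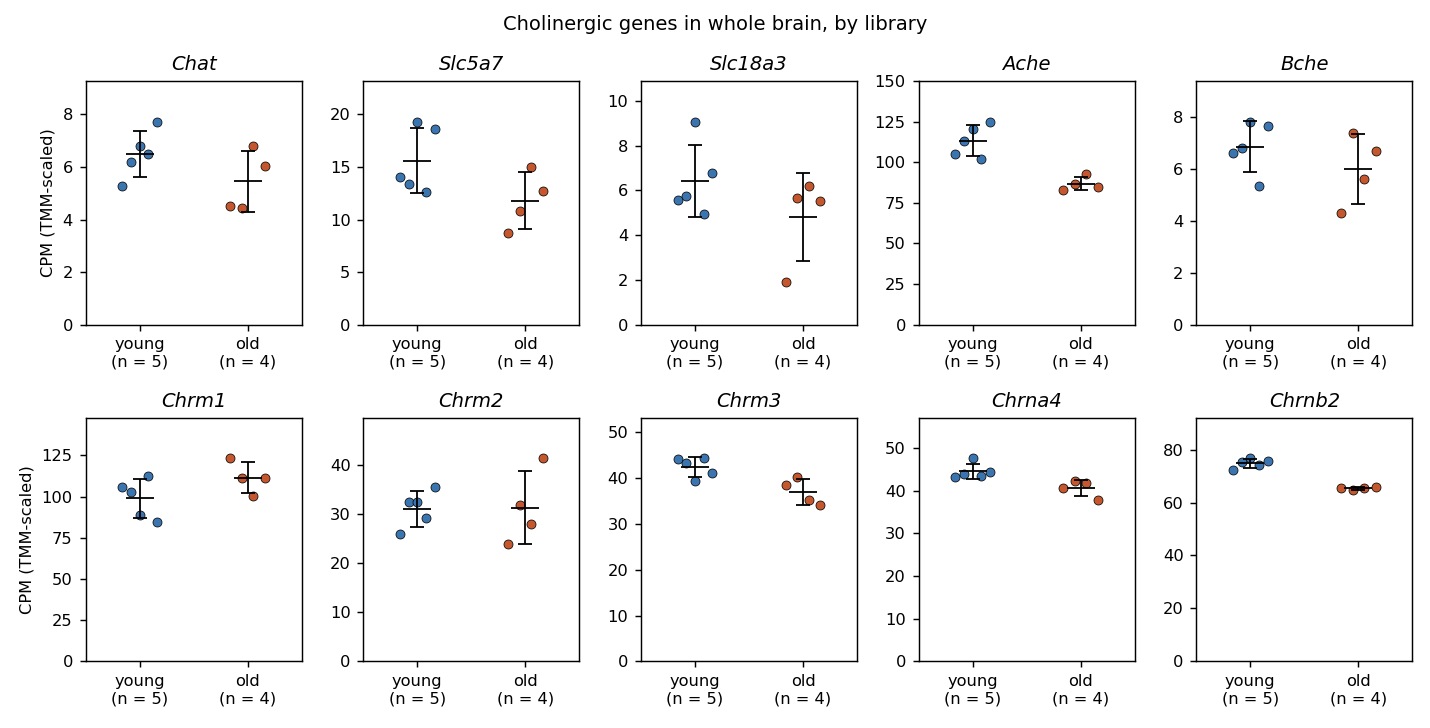
CPM with TMM scaling of each cholinergic gene in each library, with the mean and SD (bars) for young (n = 5, blue) and old mice (n = 4, orange), on axes that start at 0. The ages do not overlap for Ache, Chrna4 and Chrnb2, and the old point far below the others for Slc18a3 is old mouse 1 at 1.91 CPM.

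Choline acetyltransferase transcripts (Chat) were rare, with 63 to 134 reads per library. The young mice 1 to 5 had 5.28, 6.20, 6.80, 6.47 and 7.72 CPM, and the old mice 1, 3, 4 and 5 had 4.52, 4.44, 6.79 and 6.05 CPM. The ages overlapped: old mice 1 and 3 lay below every young mouse, and old mice 4 and 5 lay among them. On the log2 scale the fold change of old over young was -0.24 (SE 0.14, 95% confidence interval -0.54 to 0.058), which did not pass the test (edgeR, adjusted p = 0.31).

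The high-affinity choline transporter Slc5a7 (17:54273590-54299034, minus strand), which supplies the precursor at the terminal, had 14.01, 13.4, 19.3, 12.7 and 18.6 CPM in the young and 8.71, 10.8, 14.99 and 12.7 CPM in the old mice. Young mice 3 and 5 were the highest, old mice 1 and 3 the lowest, and the ages overlapped. Old over young gave a log2 fold change of -0.39 (SE 0.18, 95% confidence interval -0.80 to 0.023, edgeR adjusted p = 0.22).

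Slc18a3, the vesicular acetylcholine transporter, had 5.59, 5.75, 9.07, 4.93 and 6.80 CPM in the young and 1.91, 5.64, 6.18 and 5.52 CPM in the old mice. Old mouse 1, with 36 reads, stood apart from the other old mice, which lay within the young range. This gave a log2 fold change of -0.41 (SE 0.32, 95% confidence interval -1.14 to 0.31, edgeR adjusted p = 0.47). Without old mouse 1 it was -0.13 for Slc18a3, -0.26 for Slc5a7 and -0.15 for Chat. The lower ends of the 3 intervals, at -0.54, -0.80 and -1.14, lie below the fold change of Ache, so the misses of the threshold do not show that these levels were equal between the ages.

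Markers of the brainstem and hindbrain varied widely between the libraries. The list of 14 such markers holds Hox genes, the glycine transporter Slc6a5 and genes of serotonin and noradrenaline neurons, and their summed CPM was highest in young mice 3 (185.7) and 5 (168.5), between 108.4 and 115.9 in the other young mice, and 123.9 in old mouse 4. It was 84.3 in old mouse 3, 79.7 in old mouse 5 and 23.3 in old mouse 1, in which Hoxb5, Hoxa3, Hoxb3, Hoxa4 and Hoxc4 had no read. Young mice 3 and 5 and old mouse 4 also had the highest Slc5a7 and Slc18a3 of their ages, and old mouse 1 had the lowest of both. Chat was highest in young mouse 5 and old mouse 4, and lowest in young mouse 1 and old mouse 3.

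All 14 markers had a log2 fold change below 0, against 50% of all genes, with a median of -0.89. None was called (edgeR, adjusted p under 0.05), against 11% of all genes. An unadjusted p under 0.05 was found for 2 of the 14, against 25.5% of all genes, and DESeq2 called 1. With the mean log2 CPM of these markers as a covariate, the log2 fold change was -0.0050 for Chat, -0.029 for Slc5a7 and 0.24 for Slc18a3. In the same fit it was -0.29 for Ache, -0.27 for Chrm3 and -0.18 for Chrnb2, and all 3 kept the call (edgeR, adjusted p = 0.0096, 0.022 and 0.028). Of all genes, 1134 were called in this fit in place of 2031. The marker sum was itself lower in old mice 1, 3 and 5 than in any young mouse. Such a fit cannot separate a change with age from a difference in these markers.

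**Figure D3:**
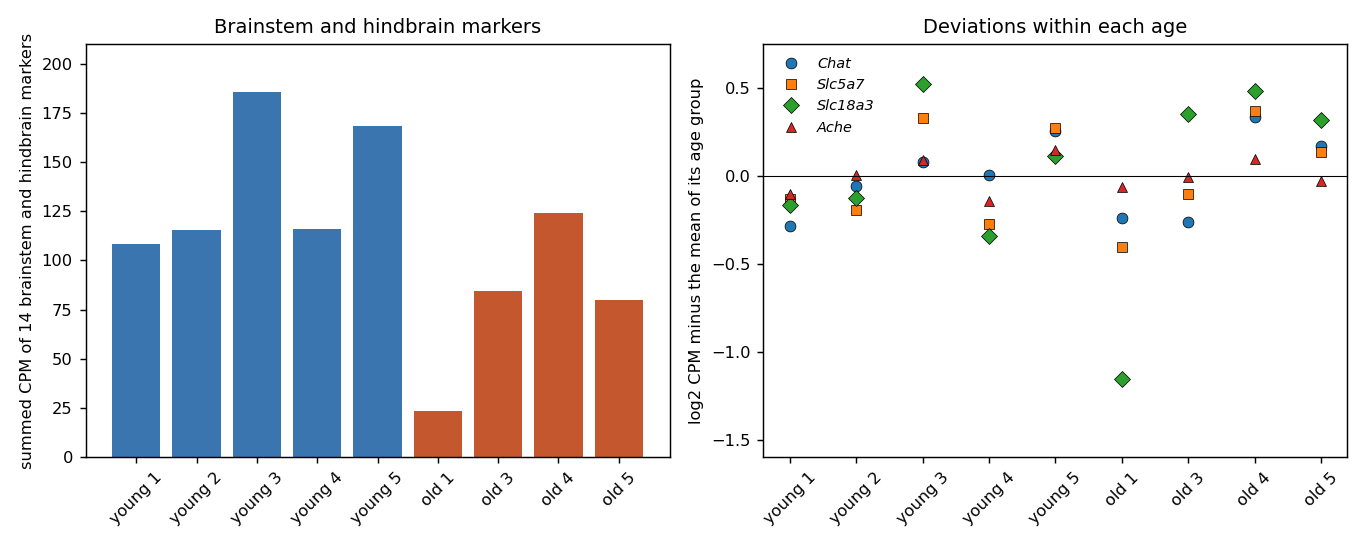
Left, summed CPM of the 14 brainstem and hindbrain markers in each library (young in blue, old in orange). Right, the log2 CPM of Chat, Slc5a7, Slc18a3 and Ache minus the mean of the age group: Slc18a3 lies 1.15 below its group's mean in old mouse 1, the library in which the marker sum is lowest, at 23.3 CPM.

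Of 11 genes listed as marks of the identity of cholinergic neurons, 10 were tested. Of these, 1 was called lower and 0 higher, against 4.89% and 6.09% of all genes. All 10 had a log2 fold change below 0, with a median of -0.27, and the ages overlapped for each of them. The called gene was Zic4, a zinc finger transcription factor that is also expressed in the cerebellum (-0.33, SE 0.091, edgeR adjusted p = 0.024). Lhx8, a transcription factor of forebrain cholinergic neurons, had a log2 fold change of -0.0070 (SE 0.24). Mnx1, a motor neuron factor, failed the filter on low counts.

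The summed CPM of the list was 54.5 to 73.1 in young mice and 50.1 to 57.5 in old mice, which overlap. Of 7 markers of the medial habenula and its target, all had a log2 fold change below 0 (median -0.35). Only Nwd2 was called (-0.55, SE 0.063, edgeR adjusted p = 4.6e-05), where 4.89% of all genes were called lower and 6.09% higher. An unadjusted p under 0.05 was found for 2 of the 7, against 25.5% of all genes, and Tac2 had -0.032 (SE 0.13). The summed CPM of these 7 was 169.6 to 198.7 in young mice and 133 to 157 in old mice, with no overlap. Calb2, for which the ages overlapped, supplies most of this sum. The 11 markers of the striatum had a median of -0.020 (1 higher and 1 lower), and the 10 of cortex and hippocampus had 0.0010 (0 called by edgeR or DESeq2 and 0 at an unadjusted p under 0.05). The part of these markers in the results for the cholinergic genes was not tested beyond the fits with such a list as a covariate.

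Ache, which encodes acetylcholinesterase (5:137287519-137294466, plus strand), had the largest change of the 10 that passed the test. The young mice 1 to 5 had 105, 113, 120, 102 and 125 CPM, and the old mice 1, 3, 4 and 5 had 83.0, 86.5, 92.9 and 85.1 CPM. Every old mouse lay below every young mouse, with a gap between 92.9 CPM in old mouse 4 and 102 CPM in young mouse 4. The mean was 113 ± 9.67 CPM (SD, n = 5) in the young and 86.9 ± 4.24 CPM (SD, n = 4) in the old mice. Ache thus had a log2 fold change of -0.38 (SE 0.057, 95% confidence interval -0.50 to -0.26, edgeR adjusted p = 0.00064), a ratio of 0.77. The call held when each mouse was left out in turn, with adjusted p between 8.3e-05 and 0.0039 (edgeR). It was lost with the cholinergic identity list as a covariate (-0.24, edgeR adjusted p = 0.070), a fit in which 0 of the 10 genes were called lower and 588 of all genes passed in place of 2031.

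Bche, the butyrylcholinesterase gene (3:73635808-73708415, minus strand), whose enzyme also splits acetylcholine, had 6.64, 6.81, 7.83, 5.36 and 7.66 CPM in the young and 4.30, 7.41, 5.64 and 6.69 CPM in the old mice. The ages overlapped over most of their range, and old mouse 1 was again the lowest. Bche had a log2 fold change of -0.19 (SE 0.15, 95% confidence interval -0.51 to 0.12, edgeR adjusted p = 0.45).

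Of the proteins that anchor the esterase, the collagen tail gene Colq fell and Prima1, the membrane anchor of brain, did not pass the test. Colq was rare, with at most 47 reads per library, and had 2.25, 1.715, 3.02, 2.27 and 2.16 CPM in the young and 0.744, 1.41, 1.696 and 1.115 CPM in the old mice. The ages did not overlap, although old mouse 4 came close to young mouse 2. Colq had a log2 fold change of -0.88 (SE 0.24, edgeR adjusted p = 0.023). With the brainstem markers as a covariate it was -0.44 (edgeR, adjusted p = 0.35), and the call was also lost without young mouse 3, old mouse 1 or old mouse 5 (-0.77, -0.68 and -0.83, edgeR adjusted p = 0.054, 0.074 and 0.062). Prima1 had a log2 fold change of 0.034 (SE 0.11, edgeR adjusted p = 0.89).

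The muscarinic receptors did not move together. Chrm3 (13:9875486-10360847, minus strand), which acts through Gq, had 44.1, 43.3, 39.5, 44.3 and 41.1 CPM in the young and 38.5, 40.1, 35.1 and 34.2 CPM in the old mice. Old mouse 3 lay above young mouse 3, so the ages overlapped, while the other old mice lay below all young ones. The log2 fold change of Chrm3 was -0.20 (SE 0.056, 95% confidence interval -0.32 to -0.083, edgeR adjusted p = 0.028). The call was lost in 5 of the 9 fits that left out a mouse (young 1, 2 or 4, old 4 or 5), with an adjusted p of up to 0.097 (edgeR), and with the replicate number as a block (edgeR, adjusted p = 0.065).

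Chrm1 (19:8663789-8683587, plus strand), the main muscarinic receptor of cortical and hippocampal excitatory neurons and also Gq-coupled, had 106, 103, 88.7, 113 and 84.9 CPM in the young and 123, 111, 100 and 112 CPM in the old mice. Young mice 3 and 5 were the lowest, old mouse 1 was the highest, and the ages overlapped. Chrm1 had a log2 fold change of 0.17 (SE 0.089, 95% confidence interval -0.028 to 0.37, edgeR adjusted p = 0.27). The summed CPM of 10 markers of cortical and hippocampal excitatory neurons was lowest in the same young mice 3 (2640) and 5 (2630) and highest in old mouse 1 (3298).

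Chrm2 (6:36388084-36528414, plus strand), which acts through Gi and is an autoreceptor on cholinergic terminals, had 25.9, 32.6, 32.4, 29.2 and 35.5 CPM in the young and 24.0, 31.9, 28.0 and 41.4 CPM in the old mice. The lowest and the highest value both came from old mice (1 and 5). The log2 fold change was 0.0076 with a wide 95% confidence interval of -0.37 to 0.38 (SE 0.16, edgeR adjusted p = 0.98).

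The remaining muscarinic receptors Chrm4 and Chrm5 were not called by edgeR or DESeq2, and neither had an unadjusted p under 0.05. Chrm4, a Gi-coupled receptor of striatal neurons, had a mean of 33.1 TPM, with a log2 fold change of 0.14 (SE 0.093). Chrm5 had 2.08 TPM and a log2 fold change of 0.073 (SE 0.22).

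Within a library, the ratio of 2 genes does not depend on how the library is scaled. The log2 ratio of Chrm3 to Chrm1 in TPM was -0.74, -0.72, -0.64, -0.82 and -0.52 in the young and -1.15, -0.95, -0.99 and -1.18 in the old mice. No old mouse reached the young range. The mean was -0.69 ± 0.11 (SD, n = 5) in the young and -1.07 ± 0.12 (SD, n = 4) in the old mice, so that Chrm3 stood at 0.62 of Chrm1 in the young and 0.48 in the old. The difference of -0.38 had p = 0.0079 in a two-sided exact permutation test over 126 splits, the smallest that these sample sizes allow, and p = 0.048 after Benjamini-Hochberg adjustment over the 6 ratios tested. It ranged from -0.42 to -0.34 when each mouse was left out. Among the young, the ratio was highest in mice 3 and 5, which had the lowest sum of cortical and hippocampal markers and the highest of brainstem markers. Among the old, the ratio was lowest in mouse 5, while the cortical and hippocampal sum was highest in mouse 1. Whether the ratio follows these markers was not tested.

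The other 5 ratios did not pass (two-sided exact permutation tests, p between 0.17 and 0.54). These were Slc18a3 to Chat with a difference of old minus young of -0.25, Slc5a7 to Chat with -0.14, Bche to Ache with 0.17, Chrm2 to Chrm1 with -0.19 and Chrna4 to Chrnb2 with 0.062. For Slc18a3 to Chat, 3 old mice lay within the young range and old mouse 1 lay at -1.02, below all others.

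**Figure D4:**
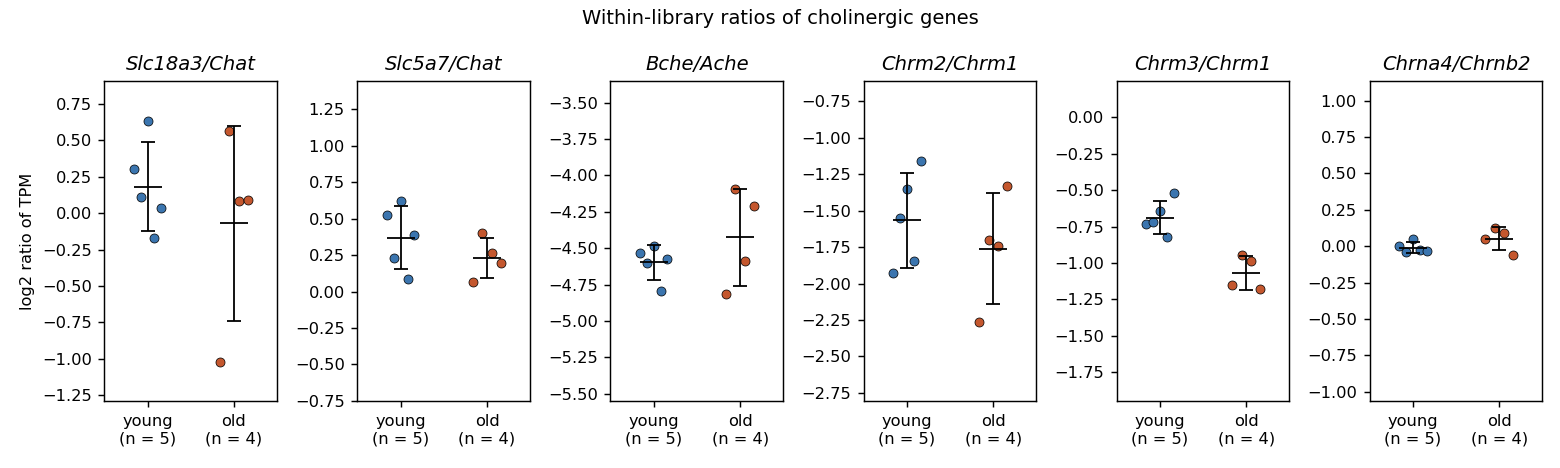
Log2 ratio of TPM of 6 pairs of cholinergic genes within each library, with the mean and SD (bars) for young (n = 5, blue) and old mice (n = 4, orange), each axis spanning 2.2 log2 units and not starting at 0. The ages are separate only for Chrm3 to Chrm1, where the means are -0.69 and -1.07.

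The nicotinic subunits Chrna4 and Chrnb2, which form the main high-affinity receptor of brain, were both lower in every old mouse than in any young mouse, but only Chrnb2 passed the test. On GRCm38 Chrna4 lay at 2:181018380-181043546 and Chrnb2 at 3:89746195-89764632, both on the minus strand. Chrnb2 had 72.2, 75.4, 76.7, 74.0 and 75.8 CPM in the young and 65.5, 64.7, 65.5 and 65.7 CPM in the old mice. The spread within an age was small, with 74.8 ± 1.77 CPM (SD, n = 5) in the young and 65.4 ± 0.469 CPM (SD, n = 4) in the old mice. The log2 fold change was -0.19 (SE 0.037, 95% confidence interval -0.27 to -0.12, edgeR adjusted p = 0.0027), and it stayed called without any 1 mouse (edgeR, adjusted p from 0.0040 to 0.010). Of the exonic bases of Chrnb2, 16.3% are shared with Adar on the opposite strand. Whether the counting used the strand is not stated for these libraries, so how reads there were assigned is not known. Adar itself had a log2 fold change of 8.0e-05 (SE 0.032), which does not tell how the shared reads were counted.

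Chrna4 had 43.3, 43.9, 47.6, 43.5 and 44.4 CPM in the young and 40.6, 42.3, 41.8 and 37.9 CPM in the old mice. The ages were separated by a gap between 42.3 CPM in old mouse 3 and 43.3 CPM in young mouse 1. The log2 fold change was -0.13 (SE 0.049, 95% confidence interval -0.23 to -0.028, edgeR adjusted p = 0.094). The ratio of Chrna4 to Chrnb2 was near 1 in both ages, at 0.99 in the young and 1.04 in the old.

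Of the 14 other nicotinic subunits, 10 were tested and none was called by edgeR or, among 9 with an adjusted p, by DESeq2. Only Chrna3, a subunit of the medial habenula and of ganglia, had an unadjusted p under 0.05, with a log2 fold change of -0.41 (SE 0.17, edgeR adjusted p = 0.13). The most abundant were Chrna7, the subunit of the homomeric receptor, with 7.40 TPM and a log2 fold change of -0.0032 (SE 0.078), and Chrnb1, a muscle-type subunit, with 3.65 TPM and 0.12 (SE 0.18). Chrna9, Chrnd, Chrne and Chrng failed the filter on low counts. The median log2 fold change of the 10 was -0.21, and 7 of them lay below 0.

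Among genes that fold or modulate nicotinic receptors, Lynx1 and Lypd1 had the lowest adjusted p of all tested genes of the pathway. Of 10 such genes, all tested, 4 were lower and 0 higher in old brain, against 4.89% and 6.09% of all genes. An unadjusted p under 0.05 was found for 6 of them, against 25.5% of all genes, and DESeq2 called 3 lower and 0 higher. Among these 6 was Rapsn, which was higher in old brain (0.61, SE 0.27, edgeR adjusted p = 0.16) at no more than 19 reads per library. The log2 fold change lay below 0 for 6 of the 10, and the median was -0.088. Lynx1, a GPI-anchored protein of the Ly6 family that binds nicotinic receptors and lowers their response, was the most abundant with 174 TPM. It had 364, 340, 361, 396 and 370 CPM in the young and 260, 277, 286 and 271 CPM in the old mice. The ages were far apart, and the log2 fold change was -0.42 (SE 0.044, edgeR adjusted p = 2.0e-05).

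Lypd1, a Ly6 protein that binds the same receptors, had 43.0, 41.0, 41.2, 45.5 and 44.2 CPM in the young and 30.7, 30.75, 33.3 and 30.7 CPM in the old mice, again with no overlap. Its log2 fold change was -0.45 (SE 0.051, edgeR adjusted p = 3.7e-05). Lypd6b, a further Ly6 relative, had -0.41 (SE 0.095, edgeR adjusted p = 0.0098), with an overlap of the ages at 12.2 CPM in old mouse 4 and 11.8 CPM in young mouse 2. With the brainstem markers as a covariate it was -0.33 and not called (edgeR, adjusted p = 0.11). Of the exonic bases of Lypd1, 17.1% are shared with Gpr39 on the opposite strand. Tmem35a, the chaperone NACHO of nicotinic receptors, stood at the threshold with a log2 fold change of -0.17 (SE 0.053, edgeR adjusted p = 0.04997), and the call was lost without each mouse but old mouse 5. Ly6h, next to Lynx1 in level with 79.9 TPM, had -0.091 (SE 0.046, edgeR adjusted p = 0.23).

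Of the 10 genes of choline supply and acetyl-CoA, 9 were tested. An unadjusted p under 0.05 was found for 4, against 25.5% of all genes. Of the 9, 2 were higher and 0 lower, against 6.09% and 4.89% of all genes, and DESeq2 also called 2 higher and 0 lower. Both were choline transporter-like genes, which are expressed outside cholinergic neurons. Slc44a1 had 95.9, 99.3, 105.5, 92.1 and 103 CPM in the young and 109, 118, 121.5 and 110 CPM in the old mice, with a log2 fold change of 0.21 (SE 0.046, edgeR adjusted p = 0.0078). Slc44a2 had a log2 fold change of 0.17 (SE 0.048, edgeR adjusted p = 0.030), and its call was lost in 4 of the 9 fits that left out a mouse (young 1 or 5, old 1 or 4, edgeR adjusted p up to 0.089). With limma on log2(TPM + 1), neither Slc44a1 (0.040) nor Slc44a2 (6.3e-05) was called. Acly, the cytosolic source of acetyl-CoA and the most abundant of the group with 110 TPM, had -0.11 (SE 0.041, edgeR adjusted p = 0.10). Slc44a4 failed the filter on low counts.

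Over these 38 genes of the pathway outside the 10, 33 were tested, of which 5 were lower and 2 higher, against 4.89% and 6.09% of all genes. The 2 higher were near the share over all genes. With the brainstem markers as a covariate the counts were 2 lower and 1 higher.

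**Figure D5:**
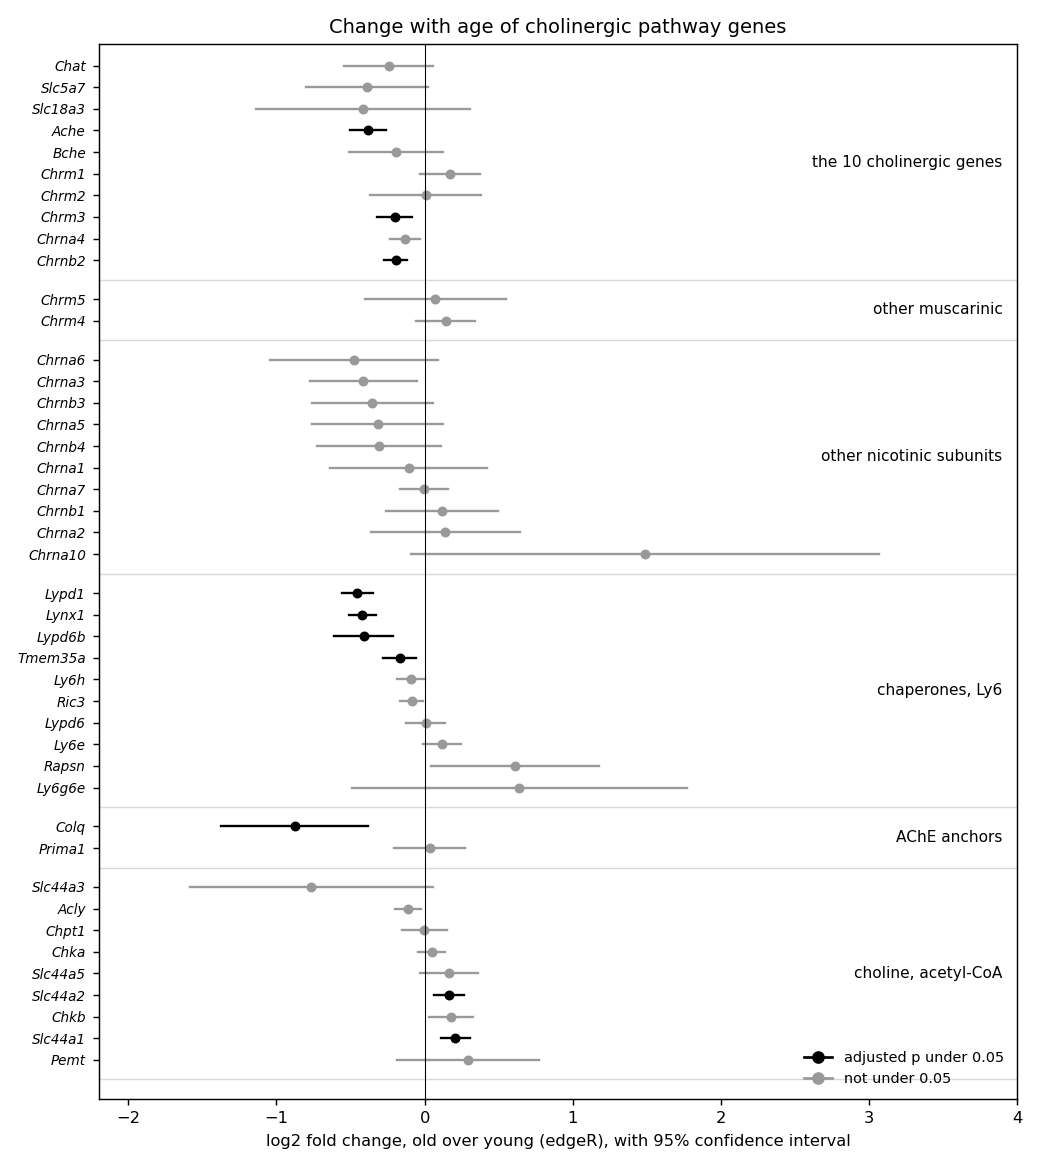
Log2 fold change of old over young (edgeR) with its 95% confidence interval for the 10 cholinergic genes and the 33 tested genes of 5 other groups of the pathway, in black where the adjusted p was under 0.05 and in grey otherwise. Ache, Chrm3 and Chrnb2 are the black points among the 10, and Lynx1, Lypd1, Lypd6b, Tmem35a, Colq, Slc44a1 and Slc44a2 among the others.

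Genes whose log2 CPM deviated most like a given gene from the mean of each age were sought among 14502 genes of at least 1 log2 CPM over the 9 libraries. For Chat they were Serf2 (Pearson's r = 0.98), Tmtc2 (0.97) and 4833439L19Rik (0.95), and for Slc5a7 they were Cdr2 (0.98), Gatm (0.96) and Cd164 (0.96). For Ache they were 5031439G07Rik (0.97), Gm16279 (0.97) and Minar2 (0.96). For Chrm3 they were Trim68 (0.98), Tmem132b (0.96) and Zfp266 (0.95), and for Chrnb2 they were Zfp622 (0.98), Nudc (0.97) and Dlk1 (0.96). These are the highest of many values over few libraries, which differed in depth and in their regional markers, and no test was made.

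Markers of other cells and regions stood beside these results as follows, where 4.89% of all genes were called lower and 6.09% higher. Of 9 markers shared by all neurons, 3 were lower (Map2, Tubb3 and Stmn2) with a median log2 fold change of -0.14, and their summed CPM was 6437 to 6861 in young mice and 6207 to 6397 in old mice. The median was 0.47 for microglia (2 of 7 called, both higher), 0.32 for endothelium (4 of 6, all higher), 1.26 for blood (3 of 5, all higher), -0.33 for the cerebellum (0 of 9 with edgeR, 2 at an unadjusted p under 0.05 and 2 lower with DESeq2) and 1.09 for the olfactory bulb (0 of 7, also unadjusted and with DESeq2). It was -0.022 for the thalamus (1 of 6 called, lower), -0.028 for oligodendrocytes (2 of 7 higher and 1 lower), 0.032 for astrocytes (0 of 6 with edgeR, 1 at an unadjusted p under 0.05 and 1 lower with DESeq2) and -0.13 for the choroid plexus (1 of 6, lower). An unadjusted p under 0.05 was found for 6 neuronal, 6 microglial, 4 endothelial and 5 blood markers, against 25.5% of all genes. DESeq2 called 4 neuronal markers lower, and 4 microglial, 4 endothelial and 5 blood markers higher. For thalamus, oligodendrocytes and choroid plexus the unadjusted counts were 2, 4 and 1. DESeq2 called 1 lower for thalamus, 3 higher and 1 lower for oligodendrocytes, and 1 lower for choroid plexus. The part of these markers in the results for the cholinergic genes was not tested, apart from the fits with the olfactory bulb or striatal markers as a covariate, in which Ache and Chrnb2 stayed called. Chrm3 stayed called with the striatal markers and not with those of the olfactory bulb (-0.20, edgeR adjusted p = 0.067).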

How the data were processed

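Reads had been trimmed with Trimmomatic, mapped with STAR (GRCm38) and assigned with featureCounts if they mapped uniquely to exons. The authors deposited the resulting counts per Ensembl gene, not normalized. They also deposited normalized counts for 17994 genes, a signal in which each library's counts were divided by a size factor, and TPM values, whose gene lengths are not given in the sources used here. In the tables, 1 column each of per-sample values had no matching sample and was not used. Library totals ranged from 14229259 to 21150439 counts, and libraries of an age differed by more than sampling noise (chi-square per degree of freedom at least 3.71), so each was taken as a replicate.

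Symbols and positions came from GENCODE M21 for GRCm38 and lacked 259 of the 49315 IDs. From the counts, 18492 genes passed filterByExpr (minimum count 10, minimum total count 15) and were compared with TMM factors and edgeR's quasi-likelihood test with robust estimation, age as the only term and Benjamini-Hochberg adjustment over all of them. Standard errors were computed from the fold change and the test statistic, log2 CPM used a prior count of 2, and the biological coefficient of variation was 6.71%. The test was checked on simulated counts. The tools were edgeR 4.0.16, DESeq2 1.42.0 and limma 3.58.1 under R 4.3.3. Within-library ratios were tested by exact permutation over 126 splits.

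The cholinergic genes and all lists were chosen with earlier results of these data known. Named were the 10 genes, of the other pathway lists up to 4 called genes of lowest adjusted p, the 2 most abundant and those failing the filter, of the marker lists the genes their counts turn on, and the 3 genes most alike Chat, Slc5a7 and each called gene. Alternatives were other size factors, DESeq2, limma on log2 of the normalized counts or of TPM with 1 or 0.1 added, different filters and thresholds, a replicate block, marker lists as covariates and each mouse left out. The covariates for cholinergic identity, olfactory bulb and the 4 nuclear genes of highest mean TPM, and the fit without robust estimation, were added after seeing the data. Of the cholinergic identity list, 1 gene, which was not called, counts in the list's values and is not reported singly here.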

Additional observations from a re-analysis of the deposited data

Results flagged for a closer look

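In the old mice, the log2 CPM of Slc18a3 in mouse 1 stood apart, with a gap to the nearest old mouse of 0.902 of the whole range. In the young mice, the log2 CPM of Chrna4 in mouse 3 stood above the others with a gap of 0.739 of the range. Of 32 groups of libraries examined in this way, chance gives about 1 in 20, or 1.6, and 2 were found.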

How the results depend on the processing

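The 3 falls among the 10 genes (main value 3) became 1 with limma on log2(TPM + 1), 0 with limma on log2(TPM + 0.1) and 0 with the cholinergic identity list as a covariate, and 2 to 3 when each mouse was left out. The TPM scales moved the median log2 fold change of all genes to -0.142 and -0.162, with 465 and 389 genes called. No gene of the 10 was called higher under any setting. With every gene of at least 1 count, Slc5a7 also passed (adjusted p = 0.033). Of the other pathway genes, 5 were lower in the main analysis, 1 with log2(TPM + 0.1), 3 with the normalized counts, 2 with the brainstem or the identity covariate, 3 at an adjusted p under 0.01 and 8 at an unadjusted p under 0.05. The 2 higher became 0 with either TPM scale or the normalized counts, 1 with the brainstem or the identity covariate, 1 at an adjusted p under 0.01 and 4 at an unadjusted p under 0.05. With a mouse left out these counts were 3 to 5 lower (3 without young mouse 3 or old mouse 1) and 1 to 3 higher (1 without young mouse 1, young mouse 5 or old mouse 1). The causes were not tested. The difference in the ratio of Chrm3 to Chrm1 was -0.42 to -0.34 with a mouse left out, and that of Chrna4 to Chrnb2 was 0.037 to 0.099, with an exact permutation p of 0.036 without old mouse 5. None of the called genes and ratios refitted under these settings (Ache, Chrm3, Chrnb2, the 7 other pathway genes and Chrm3 to Chrm1) changed its sign. The called genes of the marker lists were not refitted.

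The labels give both ages replicate numbers and state no pairing of the mice. Deviations of same-numbered libraries correlated at 0.17, -0.118, 0.0884 and -0.0243, and 2 of 4 libraries correlated best with their own number. So few values cannot show whether same-numbered libraries have anything in common. With the replicate number as a block, 2 of the 10 genes and 4 other pathway genes were lower and 2 were higher, and the Chrm3 to Chrm1 difference was -0.39 (exact permutation within pairs, p = 0.125, the smallest that 4 pairs allow). Chat and Slc18a3, at 36 to 134 reads per library, limit what could be seen of the cholinergic neuron itself.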
